A study of Mus musculus with 8 samples.

Results

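The 8 genes described here encode the enzymes and cofactors that keep, place and remove DNA methylation in mouse cells. They were chosen by name, as probesets with a single gene symbol equal to Uhrf1, Hells, Dnmt1, Dnmt3a, Dnmt3b, Tet1, Tet2 or Tet3. All 8 were measured, as 8 of 19937 genes and 11 of the 21640 probesets with a single symbol (3 for Tet1, 2 for Tet3 and 1 for each other gene). Measurements came from Affymetrix gene arrays of total RNA from NMuMG, an established mouse mammary gland epithelial cell line. All cells carried a stably transfected plasmid. It was either a control vector or a vector with major satellite sequences, the tandem repeat that fills mouse pericentromeric heterochromatin, and each line was either untreated or exposed to TGFbeta for 8 h. The 4 groups were control vector untreated, control vector with TGFbeta, major satellite untreated and major satellite with TGFbeta, with 2 arrays each and 8 arrays in all. The labels did not say whether each line was 1 clone or a pool, and gave no dose of TGFbeta.

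The title of each array carried 1 of 2 codes, and each code was shared by 1 array of every group. These are called replicate number 1 and replicate number 2. The codes have the form of dates, but the labels do not say what they mark or whether replicates came from separate cultures. If the cultures were not separate, the p-values describe array-to-array spread, which may be technical. Levels are the deposited log2 values, and differences are log2 differences ± standard error (SE) from limma with p adjusted by Benjamini-Hochberg over all 19937 genes. The threshold for passing was an adjusted p under 0.05. Each difference was fitted without the replicate number and with it as a further term, and the second fit is called blocked. The blocked fit has no term for a TGFbeta response that differs by replicate number, and it counts the 2 vectors as independent. Where a response differs by replicate number, its blocked SE, interval and p can be too small. Across genes, the arrays of a replicate number deviated together from their group means (r = 0.758 to 0.874), so both fits are given.

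Of 14 mammary epithelial markers, Cdh1 stood at 12.72 to 13.16 over all 8 arrays, Krt8 at 14.19 to 14.42 and Krt18 at 13.50 to 13.95. Epcam stood at 6.53 to 7.16 and so below the array medians, which ran from 7.72 to 7.92. The median level of the 14 markers ran from 7.85 to 8.42 over the 4 groups, and their lowest value was 5.90, so not all were high. In the mean TGFbeta response of both vectors, 2.57% of all genes rose and 2.25% fell (blocked 11.2% and 13.1%). Of 16 measured immediate targets of TGFbeta, 9 rose and 1 fell (blocked 13 and 3). Smad7, which shuts off the receptors of TGFbeta, was among the 9 (adjusted p = 0.00242, mean of both vectors).

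DNA methylation in mammals sits mostly on cytosines in CG dinucleotides. When DNA is replicated, Uhrf1 binds the hemimethylated sites behind the fork and recruits Dnmt1, which copies the mark to the new strand, while the SNF2-family helicase Hells (also known as Lsh) remodels chromatin so that repeats can be methylated. Dnmt3a and Dnmt3b methylate sites that carried no mark. Tet1, Tet2 and Tet3 are dioxygenases that oxidise 5-methylcytosine, a step towards its removal. Major satellite is among the most heavily methylated sequences in mouse somatic cells, and Uhrf1, Hells and Dnmt1 are transcribed mainly in cycling cells.

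After 8 h of TGFbeta, the 3 maintenance genes were lower than without it in both lines and in both replicate numbers, whereas Dnmt3a was higher. Averaged over both vectors, Uhrf1 stood 2.17-fold, Hells 2.09-fold and Dnmt1 1.51-fold lower, and Dnmt3a 1.38-fold higher. Dnmt3b, Tet1 and Tet3 did not pass in either fit, and Tet2 passed, lower, in the blocked fit. In the mean response of both vectors, 1 of 8 genes rose (Dnmt3a) and 0 fell without the replicate number. In the blocked fit, 1 rose, 4 fell and 3 did not pass. Of all genes, 2.57% rose and 2.25% fell without the replicate number, and 11.2% rose and 13.1% fell in the blocked fit. The median difference of the 8 genes was -0.24, beside 0.03 over all genes.

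Uhrf1, Hells and Dnmt1 moved together, and their promoter windows in the RefSeq table (GRCm38.p6, 250 bases before to 50 after a start site) are shown for that reason. E2F-like words, the kind of sequence bound by the E2F factors that act on genes of DNA synthesis, were searched for on both strands: TTGGCGC as well as TTCGCGC, then TTCCCGC as well as TTGCCGC. No word is contained in another, and overlapping matches would each be counted. All 8 genes had an entry, with 13 windows in all, and 4 windows held a word: both of Uhrf1, the 1 of Hells and 1 of the 3 of Dnmt1. Over all promoters, 3145 of 32851 windows (9.57%) held a word. The 4 windows run 5′ to 3′ along the gene's own strand, with the matches in capitals:

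Uhrf1, chr17:56303087-56303386, plus strand: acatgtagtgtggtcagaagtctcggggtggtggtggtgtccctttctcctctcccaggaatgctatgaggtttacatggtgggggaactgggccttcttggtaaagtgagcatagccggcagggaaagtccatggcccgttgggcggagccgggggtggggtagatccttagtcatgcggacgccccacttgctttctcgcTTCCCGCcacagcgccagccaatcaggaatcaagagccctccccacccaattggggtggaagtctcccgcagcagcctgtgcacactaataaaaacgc
Uhrf1, chr17:56304063-56304362, plus strand: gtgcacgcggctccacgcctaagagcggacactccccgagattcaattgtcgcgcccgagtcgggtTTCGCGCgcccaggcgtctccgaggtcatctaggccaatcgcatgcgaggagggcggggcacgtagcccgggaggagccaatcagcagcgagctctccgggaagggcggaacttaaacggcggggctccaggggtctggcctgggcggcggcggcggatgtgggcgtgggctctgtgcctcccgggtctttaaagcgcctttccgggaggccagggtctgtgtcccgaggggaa
Hells, chr19:38930740-38931039, plus strand: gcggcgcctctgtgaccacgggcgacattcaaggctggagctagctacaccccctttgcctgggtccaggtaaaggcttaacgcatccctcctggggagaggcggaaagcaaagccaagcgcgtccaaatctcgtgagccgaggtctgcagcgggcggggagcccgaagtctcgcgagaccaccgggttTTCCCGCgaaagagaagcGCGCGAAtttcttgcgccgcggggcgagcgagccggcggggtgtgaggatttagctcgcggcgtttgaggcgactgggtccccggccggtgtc
Dnmt1, chr9:20952574-20952873, minus strand: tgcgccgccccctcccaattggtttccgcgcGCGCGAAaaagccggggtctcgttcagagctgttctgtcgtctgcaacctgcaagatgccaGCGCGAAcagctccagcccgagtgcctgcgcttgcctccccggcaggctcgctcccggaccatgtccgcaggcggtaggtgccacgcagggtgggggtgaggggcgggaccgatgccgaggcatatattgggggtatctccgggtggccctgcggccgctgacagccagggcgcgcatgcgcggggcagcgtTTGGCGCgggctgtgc

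In the Uhrf1 window that starts at 56303087, TTCCCGC began 48 bases before the start site, and the window held 12 CG dinucleotides. The second Uhrf1 window had TTCGCGC 184 bases before its start and 33 CG. The Hells window had TTCCCGC at 61 bases and, on the opposite strand, TTCGCGC at 43 bases before the start, with 34 CG. The Dnmt1 window had TTCGCGC on the opposite strand at 219 and 158 bases before the start and TTGGCGC 34 bases after it, with 33 CG. These counts compare with a median of 7 CG over all windows. CG-rich windows held the words more often: of the 3837 windows with at least 30 CG, 25.4% had 1 or more. The other windows, 2 of Dnmt1, 3 of Dnmt3a and 1 each of Dnmt3b, Tet1, Tet2 and Tet3, had none of the E2F-like words. Those 2 Dnmt1 windows (chr9:20952930-20953229 and chr9:20959839-20960138, minus strand) lie upstream of the Dnmt1 window shown. All 3 words of the window shown therefore lie downstream of the start sites of the other 2. Likewise, the word of the second Uhrf1 window lies downstream of the first Uhrf1 start site. Tet2 had the most CG of the 13, at 57, more than 99.8% of all windows. A match is a description of the sequence, and binding was not measured.

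Uhrf1, the reader of hemimethylated DNA, stood in untreated control vector cells at 11.52 and 10.93 (replicate numbers 1 and 2) and in untreated major satellite cells at 11.48 and 10.90. With TGFbeta it stood at 10.71 and 9.43 in control vector cells and at 10.84 and 9.39 in major satellite cells. All 4 TGFbeta arrays lay below all 4 untreated arrays, and within each group the array of replicate number 2 was the lower. Such complete separation downwards was seen for 7.37% of all genes, and upwards for 7.38%. The fall within a pair of arrays was 0.81 and 1.51 in control vector cells and 0.64 and 1.51 in major satellite cells, larger in replicate number 2 in both. The mean difference was -1.12 ± 0.42 without the replicate number (limma, adjusted p = 0.262). In the blocked fit it was -1.12 ± 0.14 (95% interval -1.44 to -0.79, adjusted p = 0.000439). The falls went together by replicate number, whereas that interval and p count both vectors as independent.

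Hells, the remodelling helicase, stood at 10.80 and 11.59 in untreated control vector cells and at 10.75 and 11.64 in untreated major satellite cells. After TGFbeta it stood at 9.86 and 10.42 and at 9.75 and 10.48. The untreated and treated arrays did not overlap, and here the array of replicate number 2 was the higher one in every group, the opposite of Uhrf1. The 4 pairs nevertheless gave close values, in which Hells fell by 0.94 and fell by 1.17 in control vector cells and fell by 0.99 and fell by 1.16 in major satellite cells. The mean difference was -1.07 ± 0.30 (limma, adjusted p = 0.129). Blocked, its SE shrank to 0.07 and its adjusted p was 9.23e-06.

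Dnmt1, the maintenance methyltransferase, stood at 12.02 and 11.75 in untreated control vector cells and at 12.04 and 11.78 in untreated major satellite cells. With TGFbeta its levels were 11.60 and 11.02 in control vector cells and 11.60 and 10.99 in major satellite cells. Again all treated arrays were below all untreated ones, with the lowest values in replicate number 2. The pairs fell by 0.42 and 0.73 in control vector cells and by 0.44 and 0.79 in major satellite cells. Its mean difference was -0.60 ± 0.19 (limma, adjusted p = 0.189), and in the blocked fit ± 0.08 with an adjusted p of 0.000523. Here too the falls went together by replicate number, and the blocked fit counts both vectors as independent.

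**Figure D1:**
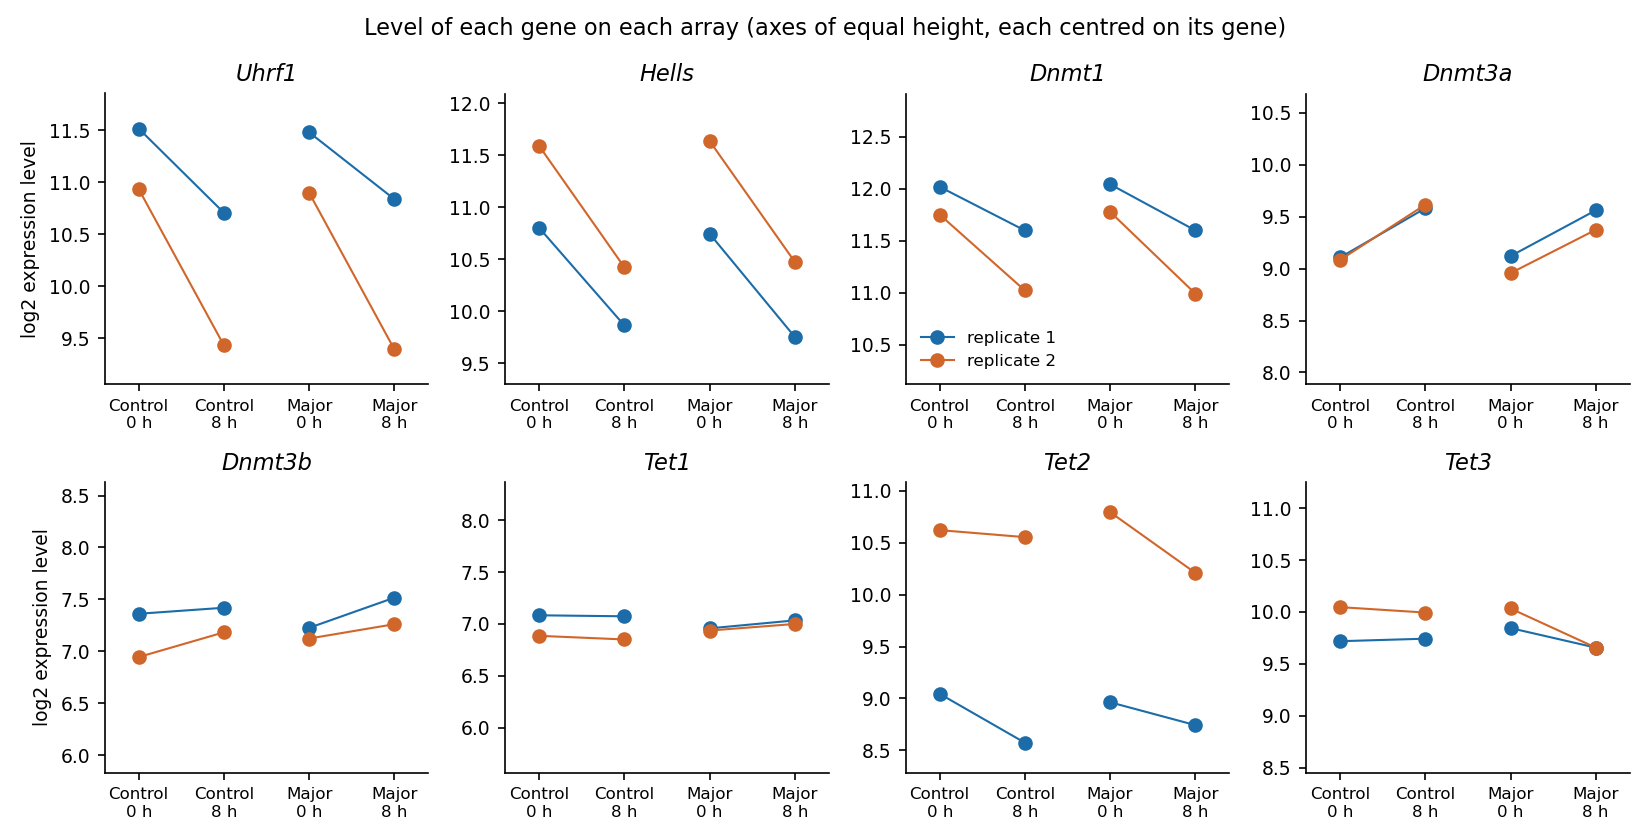
Log2 level of each of the 8 genes (vertical axis, of equal height in every panel and centred on its gene) in the 4 groups (horizontal axis), with 1 point per array, coloured by replicate number, and a line joining untreated (0 h) and treated (8 h) arrays of the same replicate number and vector. In the Uhrf1, Hells, Dnmt1 and Dnmt3a panels the 4 TGFbeta arrays do not overlap the 4 untreated ones, and Tet2 separates by replicate number.

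The falls of Uhrf1 and Hells were then set against that of Dnmt1 within each pair of arrays. Uhrf1 fell further than Dnmt1 by 0.39 and 0.77 in control vector cells and by 0.20 and 0.72 in major satellite cells, a mean of -0.52 ± 0.27 (SD, n = 4 pairs, difference of log2 differences). Hells fell further than Dnmt1 by 0.52, 0.44, 0.55 and 0.38 in the same pairs, a mean of -0.47 ± 0.08 (SD, n = 4 pairs). Both were below 0 in 4 of 4 pairs. The exact two-sided sign-flip test gave p = 0.13 for each, which 2 of 16 arrangements reach and which is the smallest value 4 pairs allow; adjustment over both genes left it at 0.13. The extra fall of Uhrf1 averaged -0.29 in replicate number 1 and -0.75 in number 2, and that of Hells -0.53 and -0.41. The SD and the test count the 4 pairs as independent, but pairs of the same replicate number were alike. The 4 pairs therefore overstate the replication. Leaving out 1 pair moved Uhrf1 between -0.63 and -0.44 and Hells between -0.50 and -0.44.

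**Figure D2:**
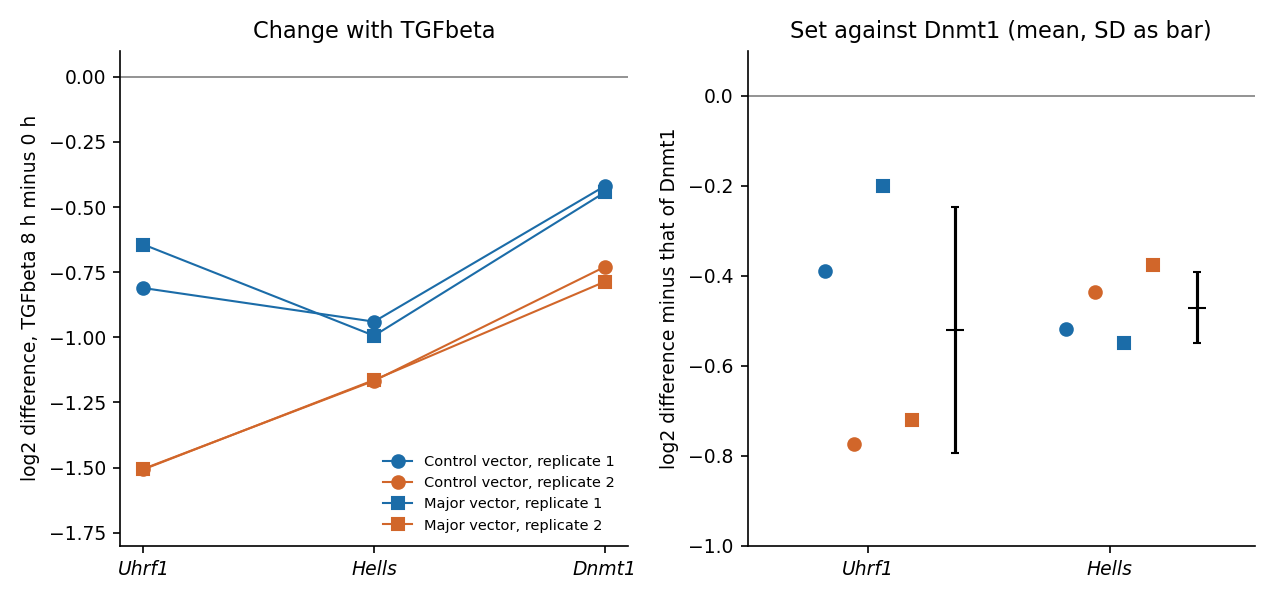
Left, TGFbeta minus untreated log2 difference of Uhrf1, Hells and Dnmt1, with a line for each of the 4 pairs of arrays (circles control vector, squares major satellite vector), and right, the differences of Uhrf1 and Hells minus that of Dnmt1 in the same pairs, with the mean and SD. Uhrf1 and Hells lie below Dnmt1 in all 4 pairs, and the Uhrf1 points of replicate number 2 are the lowest, at -1.51.

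Among all 19937 genes, 144 (0.722%) had a mean TGFbeta difference lower than that of Uhrf1, 164 (0.823%) lower than Hells and 672 (3.37%) lower than Dnmt1. The list of DNA replication and G1/S genes was lower too: blocked, 41 of 41 fell, with a median of -0.60 and a range from -1.22 to -0.26, and 3 of 41 fell without the replicate number. Those 3 were Ccne2, the S-phase cyclin E2 (-1.22 ± 0.15, adjusted p = 0.00878), Dtl, a substrate receptor of the CRL4 ubiquitin ligase (-1.11 ± 0.13, adjusted p = 0.00743), and Orc6, a subunit of the origin recognition complex (-0.67 ± 0.12, adjusted p = 0.0333). Prim1, the primase subunit, differed by -0.93 ± 0.22 (adjusted p = 0.0705, blocked 0.000377). Of these 41 genes, 1 had a lower difference than Uhrf1, 2 lower than Hells and 21 lower than Dnmt1, so Dnmt1 lay near the middle of the replication genes and Uhrf1 and Hells near their low end. The list's median was -0.44 in replicate number 1 and -0.77 in number 2, an order also seen for Uhrf1, Hells and Dnmt1 in both lines. RNA was taken from whole cultures, so fewer cells in S phase and less RNA per cell cannot be told apart, and the part of the cell cycle in the falls of Uhrf1, Hells and Dnmt1 was not tested.

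Of the methyltransferases that place new marks, Dnmt3a rose and Dnmt3b did not pass. Dnmt3a stood at 9.11 and 9.08 in untreated control vector cells and at 9.12 and 8.96 in untreated major satellite cells. With TGFbeta it reached 9.58 and 9.62 in control vector cells and 9.56 and 9.37 in major satellite cells. All 4 treated arrays were above the untreated ones, and the gap between replicate numbers 2 and 1 ran from -0.19 to 0.04. The pairs rose by 0.47, 0.53, 0.44 and 0.42, the mean by 0.47 ± 0.09 (limma, adjusted p = 0.0333, blocked 0.000696). Without the replicate number, that call was lost when any 1 array was left out (adjusted p 0.0761 to 0.142). Blocked, it held in 8 of 8 such fits. Of all genes, 4.19% had a higher difference than Dnmt3a.

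Dnmt3b, the second de novo methyltransferase, stood at 7.36 and 6.95 untreated and 7.42 and 7.18 treated in control vector cells. In major satellite cells it stood at 7.23 and 7.12 untreated and at 7.52 and 7.26 treated. All of these levels lie below the median of every array. All 4 pairs were higher with TGFbeta, by 0.06, 0.24, 0.29 and 0.14, but the groups overlapped. The mean difference of 0.18 ± 0.13 did not pass (limma, adjusted p = 0.69, blocked 0.0864).

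Of the 3 Tet genes, Tet2 carried the widest gap between replicate numbers of any of the 8 genes. Untreated, it stood at 9.04 and 10.62 in control vector cells and at 8.96 and 10.80 in major satellite cells, and with TGFbeta at 8.57 and 10.55 and at 8.74 and 10.21. Arrays of replicate number 2 were higher by 1.47 to 1.98 in every group, more than any TGFbeta difference of Tet2. Within pairs Tet2 was lower with TGFbeta in 4 of 4, by 0.47, 0.07, 0.22 and 0.59. The mean difference was -0.34 ± 0.68 without the replicate number (limma, adjusted p = 0.932) and -0.34 ± 0.09 blocked (adjusted p = 0.0216). The blocked call held in 4 of 8 fits that left out 1 array. It was lost without untreated control vector replicate 1 (adjusted p = 0.0839), treated control vector replicate 1 (0.0943), untreated major satellite replicate 2 (0.0955) or treated major satellite replicate 2 (0.0858).

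Tet3 stood at 9.72 and 10.05 untreated and 9.74 and 9.99 treated in control vector cells, and at 9.84 and 10.03 untreated and 9.66 and 9.66 treated in major satellite cells. It differed with TGFbeta by 0.02 and -0.05 in the control vector pairs and by -0.19 and -0.38 in the major satellite pairs. The mean of -0.15 ± 0.11 did not pass (limma, adjusted p = 0.727, blocked 0.166). Its other probeset gave -0.16 in the same comparison (limma on all 21640 probesets with a single symbol, blocked p adjusted over them = 0.259).

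Tet1 stood at 7.08 and 6.89 untreated and 7.07 and 6.85 treated in control vector cells, and at 6.96 and 6.94 untreated and 7.03 and 7.0 treated in major satellite cells. These levels lie below the median of every array. Its mean TGFbeta difference was 0.02 ± 0.09 (limma, adjusted p = 0.969, blocked 0.834). In a limma fit of all 21640 probesets with a single symbol, its 3 probesets gave 0.06, -0.03 and 0.02. Their blocked p, adjusted over those probesets, were 0.575, 0.827 and 0.836.

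**Figure D3:**
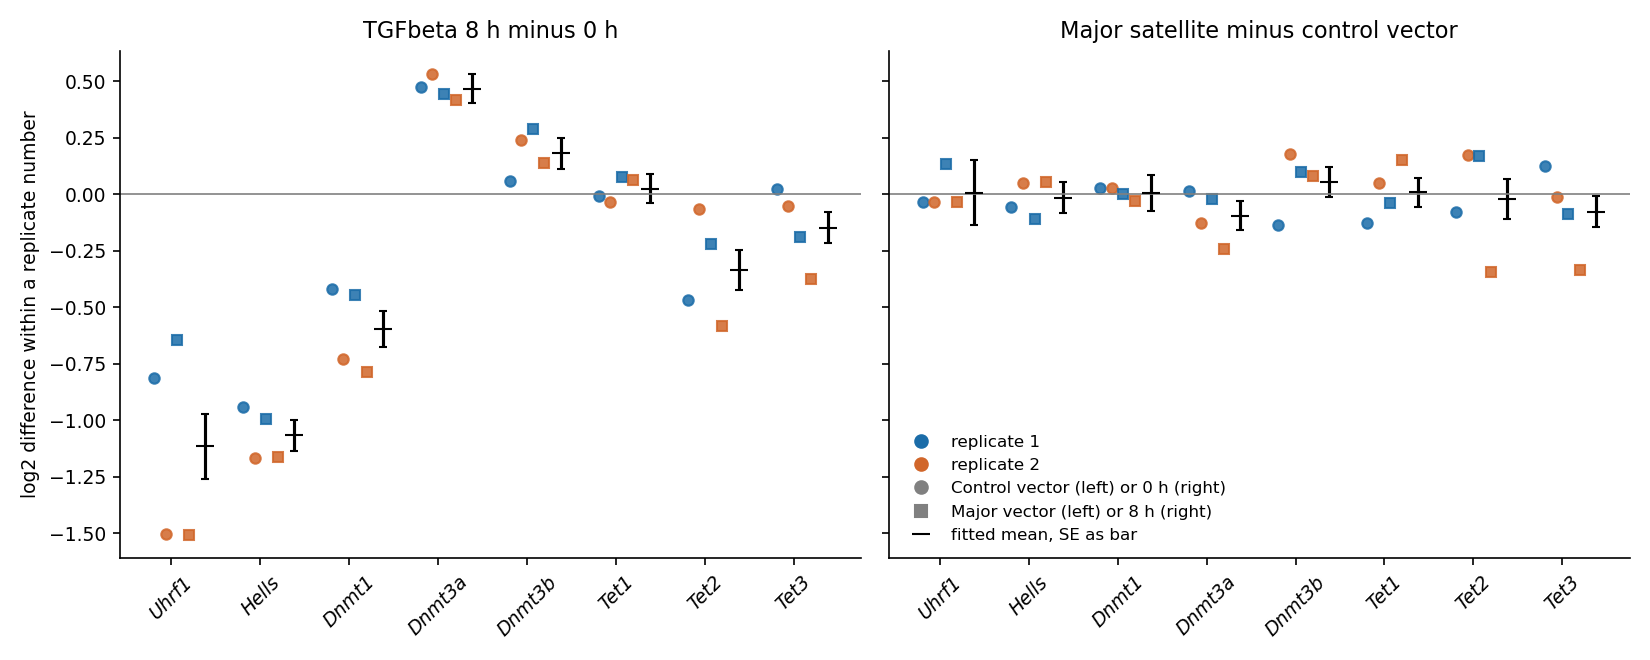
Log2 differences (vertical axis) of the 8 genes, TGFbeta minus untreated on the left and major satellite minus control vector on the right, with 1 coloured point per pair of arrays and, in black, the fitted mean with its blocked SE. On the left Uhrf1, Hells and Dnmt1 lie below 0 and Dnmt3a above 0 in all 4 pairs, and on the right no fitted mean is farther from 0 than that of Dnmt3a, -0.10.

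The TGFbeta response was also fitted in each line alone. In control vector cells the differences were -1.16 for Uhrf1 (blocked adjusted p = 0.00485), -1.05 for Hells (0.000181), -0.58 for Dnmt1 (0.00798) and 0.50 for Dnmt3a (0.00585). In major satellite cells they were -1.08 for Uhrf1 (blocked adjusted p = 0.0069), -1.08 for Hells (0.000176), -0.62 for Dnmt1 (0.00568) and 0.43 for Dnmt3a (0.0128). So in each line 1 gene rose and 3 fell in the blocked limma fit, where 6.92% of all genes rose and 7.63% fell in control vector cells and 6.89% and 8.38% in major satellite cells. Without the replicate number 0 of 8 passed in either line. Of all genes, 0.707% rose and 0.366% fell in control vector cells and 0.682% and 0.411% in major satellite cells in that fit. With 1 array left out, the blocked calls of Hells held in 8 of 8 fits in both lines. Those of Uhrf1 and Dnmt1 held in 6 of 8 in both, and were lost without either array of replicate number 2 of the line in question, with adjusted p from 0.0674 to 0.11. Dnmt3a held in 6 of 8 fits in control vector cells, lost without untreated replicate 1 or treated replicate 2 (0.0506 and 0.0884). It held in 5 of 8 in major satellite cells, lost without untreated replicate 1, untreated replicate 2 or treated replicate 1 (0.0544, 0.143 and 0.0689).

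The major satellite vector itself was compared with the control vector in untreated cells, in treated cells and over both. None of the 8 genes passed in any of the 3 comparisons or in the difference between the 2 TGFbeta responses, in either limma fit, and 0 of 8 had an unadjusted p under 0.05 in any of them. Few genes passed at all: over both treatments 0.01% without the replicate number and 0.0853% blocked, in untreated and in treated cells each 0.00502% and 0.0301%, and 0.0% in the difference of responses. Over both treatments, the 8 genes differed between vectors by -0.10 (Dnmt3a) to 0.05, with all blocked 95% intervals inside -0.32 to 0.33. In untreated cells the differences ran from -0.06 to 0.06 (intervals inside -0.49 to 0.42). In treated cells they ran from -0.21 (Tet3, blocked adjusted p = 0.752) to 0.09 (intervals inside -0.43 to 0.50). Tet3 also had the most negative difference of responses, -0.27 ± 0.14 blocked (adjusted p = 0.999), and for all 8 genes the intervals of that difference lay inside -0.58 to 0.73. The vector comparisons and the TGFbeta comparisons use the same arrays. Without the replicate number the intervals of the 8 genes reached farther, inside -1.65 to 1.61 over both treatments, -2.26 to 2.35 in untreated cells, -2.39 to 2.22 in treated cells and -3.39 to 3.12 for the difference of responses.

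Other genes of the pathway were read from lists in the mean TGFbeta response of both vectors, where 2.57% of all genes rose and 2.25% fell (blocked 11.2% and 13.1%). Of 20 measured methylation readers and maintenance partners, 1 rose and 0 fell, and blocked 2 rose and 7 fell (median -0.14). Zbtb38, a zinc finger reader of methylated CG, rose by 0.82 ± 0.11 (limma, adjusted p = 0.0123). Cdca7l, a paralogue of the Hells partner Cdca7, differed by -1.01 ± 0.27 (adjusted p = 0.116, blocked 3.19e-05). Uhrf2, the paralogue of Uhrf1, differed by -0.37 ± 0.13 (adjusted p = 0.223, blocked 0.00267), and Cbx5, which encodes the heterochromatin protein HP1alpha, by -0.23 (adjusted p = 0.232, blocked 0.0288).

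Of 23 measured genes of demethylation and base excision repair, 3 rose and 1 fell, and blocked 6 rose and 5 fell, with a median of -0.02. Gadd45a and Gadd45g, stress-induced genes of a family linked to active demethylation, rose by 2.34 ± 0.17 (limma, adjusted p = 0.00188) and 1.43 ± 0.23 (adjusted p = 0.0204). Cxxc5, a CXXC zinc finger protein that binds unmethylated CG and is known to interact with Tet2, rose by 1.25 ± 0.12 (adjusted p = 0.00398). Wdr76, a WD40-repeat protein, fell by 1.13 ± 0.15 (adjusted p = 0.01).

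Genes of one-carbon metabolism and S-adenosylmethionine supply provide the methyl group. Of 24 measured, 0 rose and 3 fell without the replicate number, and blocked 1 rose and 15 fell, beside 2.25% of all genes that fell without it and 13.1% blocked (median -0.36, all genes 0.03). Cth, the cystathionine gamma-lyase, fell by 1.37 ± 0.17 (limma, adjusted p = 0.00881), Shmt1, the cytosolic serine hydroxymethyltransferase, by 1.34 ± 0.19 (adjusted p = 0.0146) and Psat1, an enzyme of serine synthesis, by 0.61 ± 0.08 (adjusted p = 0.0108). Cbs, the cystathionine beta-synthase, differed by -0.46 (adjusted p = 0.173, blocked 0.0199). In none of these lists, nor in the replication list, did a gene pass between vectors over both treatments in either fit.

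**Figure D4:**
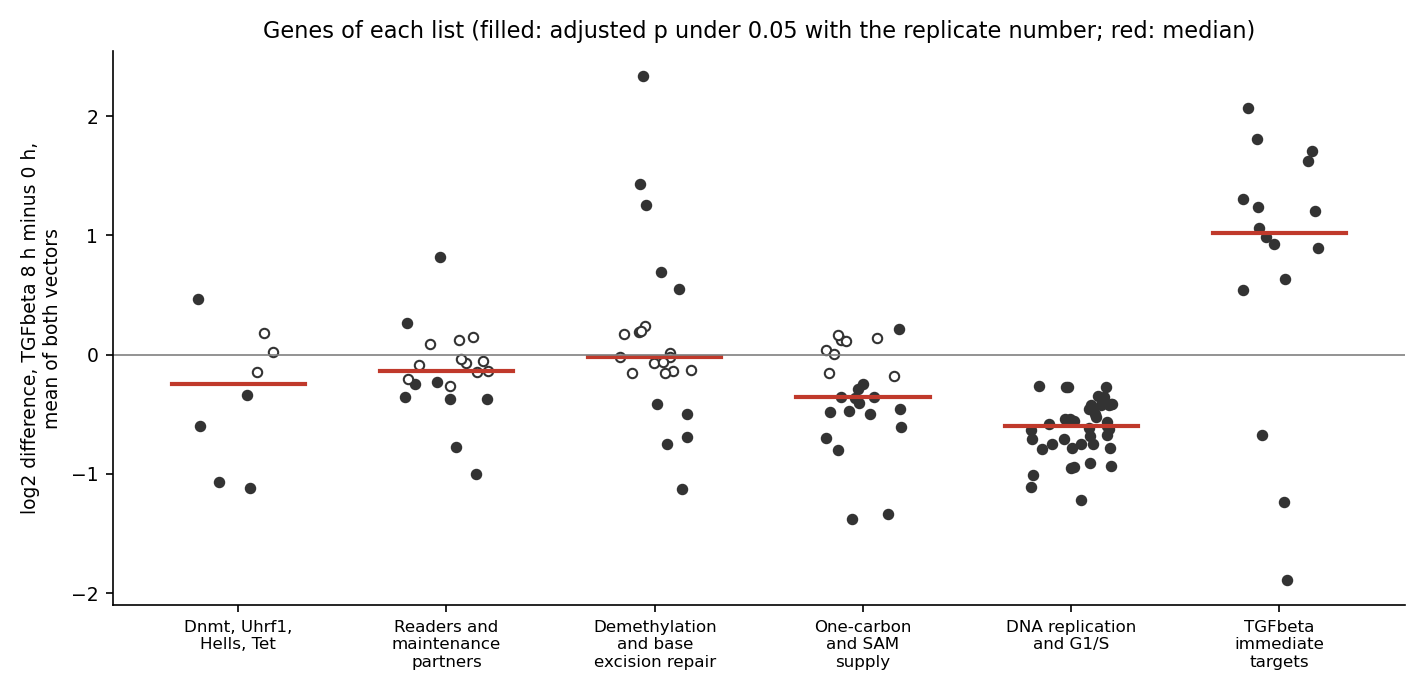
Mean TGFbeta minus untreated log2 difference (vertical axis) of the 8 genes and of each measured gene of the pathway lists, with 1 point per gene, filled where it passed in the blocked fit, and the median as a red line. The 41 replication genes all lie below 0, and the immediate TGFbeta targets reach from -1.89 to 2.07.

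Markers of this and other cell types were read in the mean TGFbeta comparison, where 2.57% of all genes rose and 2.25% fell (blocked 11.2% and 13.1%). Of 10 fibroblast markers, 1 rose (Pdgfra, by 0.67, limma, adjusted p = 0.0281) and 1 fell (Twist2, by 0.97, adjusted p = 0.00548), and blocked 3 rose and 1 fell. The log2 of their summed linear levels was 11.42 to 11.64 in untreated control vector cells and 11.46 to 11.72 in untreated major satellite cells. In the treated groups it was 11.24 to 11.37 (control vector) and 11.34 to 11.43 (major satellite). Of 14 mammary epithelial markers, 1 rose and 0 fell (blocked 5 and 1), with differences from -0.339 to 2.255. Their levels, summed in the same way, gave 15.37 to 15.57 over all arrays, a sum set mostly by the genes of highest level. Of 11 endothelial and immune markers 0 passed (blocked 2 rose), and of 8 embryonic stem or germ cell markers 0 passed in either fit. The log2 of the summed linear levels was 10.38 to 10.80 for the first list and 8.95 to 9.16 for the second. The part of these markers in the differences of the 8 genes was not tested.

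The genes most alike in pattern to each maintenance gene were read from Pearson correlations over the 8 arrays, after each gene's mean in each replicate number was taken off, among 9968 genes above the median level. The arrays share the TGFbeta contrast, so these are descriptions of 8 points that fall into treated and untreated sets. Uhrf1 was most like Wee1 (0.9983), a kinase that restrains entry into mitosis, Cyb5a, Fastkd2, C4bp and Ccne1 (0.9953). Hells was most like Cx3cl1 (0.9990), Fmnl1, Lima1, Neu1 and Gsta4 (0.9967). Dnmt1 was most like Cyp3a13 (0.9984), Mep1a, Top2a, Cyb5a and Ranbp3l (0.9974). Of these, Ccne1, the cyclin E1 of S-phase entry, was a member of the replication list. Among the 8 genes themselves, Uhrf1 correlated with Dnmt1 at 0.9949, with Hells at 0.9636 and with Dnmt3a at -0.9052.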

How the data were processed

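RNA from NMuMG cells was hybridised to 8 arrays (4 groups of 2). The authors deposited log2 expression values per probeset. RMA and limma are named per the submitters' processing notes. Their versions and roles, and the genome build, are not given in the sources used here, nor is whether all arrays were normalised together. Values of the 34760 probesets ran from 2.98 to 14.75. No array duplicated another (0 identical pairs), and 0 values were missing. Of the probesets, 21640 had 1 gene symbol in the platform table, 1321 had several and 11799 none. Symbols of 21553 were found by Entrez identifier in RefSeq. For 954 genes with several probesets the one with the highest mean was used. Only probesets with a single symbol were used.

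The fits used limma 3.58.1 (R 4.3.3; 1 mean per group, all 8 arrays, 4 residual degrees of freedom, two-sided tests), and again with the replicate number as a block (3 degrees of freedom). The number is a code in the array titles. The code was tested on simulated data. The number of arrays limits the precision.

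The 8 genes, the lists and the tests were chosen with earlier results of these data known. Named list genes were up to 4 with the smallest p in the mean TGFbeta response and any passing without the block, up to 6. Alternatives covered the block, normalization between arrays, probesets per gene, low values, the variance prior, the arrays in the fit and single arrays left out. Promoters came from RefSeq, and protein sequences were not used here. Some genes of the lists are not reported here.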

Additional observations from a re-analysis of the deposited data

How the results depend on the processing

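The replicate block (the paired analysis) raised the counts of passing genes in every comparison but the difference of responses, so block values stand beside the results above. With the replicate block alone, then with the mean of probesets, then with quantile normalization (the last pair of settings chosen after seeing the data), 2901, 2900 and 2951 genes passed for TGFbeta in control vector cells (214 without the block), and 3044, 3057 and 3037 in major satellite cells (218). For the mean TGFbeta response these counts were 4841, 4845 and 4839 (962). Between vectors they were 6, 6 and 6 in untreated cells (1), 6, 6 and 7 in treated cells (1) and 17, 17 and 15 over both (2). In the lists they were 9, 9 and 9 for readers and partners, 11, 11 and 13 for demethylation and repair, 16, 16 and 15 for one-carbon genes, 41, 41 and 41 for replication genes and 16, 16 and 16 for TGFbeta targets. Fits on the arrays of the groups compared alone, possible only for 2-group comparisons and with few degrees of freedom, called 0 genes for TGFbeta in either line and 0 between untreated lines. A trended variance prior left 140 genes for TGFbeta in major satellite cells and took the adjusted p of Dnmt3a without the block to 0.0745. Equal array medians or the mean of probesets left 1 gene between vectors over both treatments. The difference of responses had 0 genes in both fits, with 44 and 658 at an unadjusted p under 0.05.

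Leaving out 1 array in turn gave 0 to 89 genes for TGFbeta in control vector cells (blocked 1202 to 3161), 0 to 82 in major satellite cells (blocked 1228 to 3020) and 359 to 638 in the mean response (blocked 3498 to 4860). Between vectors it gave 0 to 1 in untreated cells (blocked 2 to 9), 0 to 1 in treated cells (blocked 1 to 107), 1 to 2 over both (blocked 8 to 49) and 0 to 0 for the difference of responses (blocked 0 to 17). The 107 and the 17 came without treated major satellite replicate 1. In the lists the ranges were 2 to 4 for replication (blocked 35 to 41), 3 to 4 for demethylation (10 to 12), 0 to 1 for readers (6 to 9), 1 to 3 for one-carbon genes (12 to 15) and 6 to 10 for targets (15 to 16). With 1 array left out, the lone array of a group is assumed to vary like the others. Without the block and with 1 array left out, the mean TGFbeta difference of Tet2 ran from -0.83 to 0.16. The vector difference of Dnmt3a over both treatments was -0.004 within replicate number 1 and -0.19 within number 2. With 2 arrays a group, the spread is poorly known, and the causes of these shifts were not tested.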
